A study of Mus musculus with 8 samples.

Results

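Replication-dependent histone genes of the mouse retina were followed in RNA-seq libraries of germ-free (GF) animals on a high-fat or a normal diet. The genes were selected by symbol (the names that begin with Hist1h, Hist2h, Hist3h or Hist4h) and by level, with at least 10 counts summed over the 8 libraries. Of 70 such symbols in the deposited tables, 46 met this count and are described here, 11 had 1 to 9 counts and 13 had none. The 46 are 6 linker histones H1, 8 H2A, 13 H2B, 9 H3 and 10 H4 genes, out of 6, 20, 19, 12 and 13 symbols, and 1 of the H2B genes, Hist3h2bb-ps, is annotated as a processed pseudogene. The level is the value that chose them, so no statement is made on whether the retina expresses histone genes more than other genes. The set is named for its symbol family, and whether each member, Hist2h2be among them, depends on replication was not tested.

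Each library was made from 1 whole retina of 1 adult male C57B1/6 mouse kept without microbes, and both groups share this germ-free state. GF-HFD mice 13, 15, 16 and 19 had free access to food with 23% saturated fat, and GF-ND mice 9, 10, 11 and 12 to a normal diet, which makes 4 per group. Both diets were given for 8 weeks, from 7 weeks of age until the retinas were taken at 15 weeks. By the labels the groups differ in diet, which is the contrast examined here. The p-values below measure the spread between these mice, and neither litter nor cage is known from the labels.

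The core histones H2A, H2B, H3 and H4 form the protein spool around which DNA is wound, and the linker histone H1 binds where DNA enters and leaves it. Most of their genes lie in clusters in many near-identical copies and are transcribed chiefly during DNA replication, when new chromatin needs histones. Their mRNAs end in a conserved stem-loop instead of a poly(A) tail. The replication-independent variants, such as H3.3, come from genes with polyadenylated mRNAs and are the main supply of cells that no longer divide. Neurons of the adult retina belong to such cells. Some replication-dependent genes are also known to give polyadenylated transcripts that read past the stem-loop, chiefly in differentiated cells.

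The stem-loop is the feature that bears on how these mRNAs enter a library, so its sequence is shown for members of each class. The methods name TruSeq RNA kits and do not say whether poly(A) RNA was selected. The levels below are therefore those of the RNA that entered the libraries. How much histone mRNA without a poly(A) tail they cover is not known. The histone stem-loop consensus was found downstream of the stop codon in the annotated transcripts of 29 of the 46 members, in 4 forms. The commonest form was in 18 members, a form with a changed stem was in 5 (H4 genes only), a form with a changed loop in 5 and a last form in Hist1h4j alone. The lines below give 26 bases, 5′ to 3′ on the strand of the gene, with the 16 bases of the stem-loop in capitals, from the GRCm38 sequence of GENCODE vM21 transcripts.
Hist1h1c (H1): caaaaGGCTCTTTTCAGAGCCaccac
Hist3h2a (H2A): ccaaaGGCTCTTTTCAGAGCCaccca
Hist3h2ba (H2B): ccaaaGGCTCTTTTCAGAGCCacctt
Hist2h3c2 (H3): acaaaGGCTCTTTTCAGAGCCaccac
Hist1h3f (H3): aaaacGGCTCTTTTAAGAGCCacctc
Hist4h4 (H4): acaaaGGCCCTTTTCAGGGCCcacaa
Hist1h4j (H4): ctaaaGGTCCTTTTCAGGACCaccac
These runs lie at chr13:23739507-23739532 (Hist1h1c, plus strand), chr11:58955167-58955192 (Hist3h2a, plus), chr11:58949344-58949369 (Hist3h2ba, plus), chr3:96238480-96238505 (Hist2h3c2, minus), chr13:23544927-23544952 (Hist1h3f, plus), chr6:136803993-136804018 (Hist4h4, minus) and chr13:21735432-21735457 (Hist1h4j, plus), all downstream of the stop codon. The annotated transcript went on for 840 bases past the stem-loop in Hist1h1c, 1643 in Hist3h2a, 169 in Hist3h2ba, 377 in Hist2h3c2, 365 in Hist1h3f, 2445 in Hist4h4 and 385 in Hist1h4j. In the other 17 members no match was found within the annotated transcript, among them Hist1h2bc, Hist2h2be, Hist1h4i, Hist1h4k and Hist2h4. The annotation of Hist1h1b, Hist2h2ab, Hist1h2aa, Hist1h2bn, Hist1h2ba, Hist1h3i and Hist1h4k ends at the stop codon, so no match was possible there. A missing match in these genes thus does not show that they lack the stem-loop. Hist2h2be, Hist2h4, Hist1h2bc and Hist1h4i had 2195, 1314, 745 and 379 annotated bases from the stop codon on, with no match. Only the annotated transcript and this consensus were searched, so whether these genes have a stem-loop elsewhere or in another form was not tested.

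H2A and H2B genes often lie head to head and share the stretch between their start sites. In GENCODE, 14 such pairs had start sites 173 to 306 bases apart, and in 6 pairs both genes were members. The promoters of Hist1h2ac and Hist2h2ac are shown because each holds the whole stretch shared with its H2B partner, Hist1h2bc and Hist2h2be, and the partners were measured at very different levels. Each line runs from 250 bases before to 50 after the RefSeq start site (GRCm38.p6), 5′ to 3′ on the strand of the H2A gene, and covers chr13:23683910-23684209 (minus strand) and chr3:96220831-96221130 (minus strand). Capitals mark the octamer ATTTGCAT, CCAAT and TATAAA, each searched on both strands.
Hist1h2ac: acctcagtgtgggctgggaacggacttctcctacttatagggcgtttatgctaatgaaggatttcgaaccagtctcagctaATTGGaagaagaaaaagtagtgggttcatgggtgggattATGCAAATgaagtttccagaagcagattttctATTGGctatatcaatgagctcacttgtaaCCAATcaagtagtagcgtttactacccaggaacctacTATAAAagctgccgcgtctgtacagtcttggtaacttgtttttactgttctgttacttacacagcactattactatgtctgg
Hist2h2ac: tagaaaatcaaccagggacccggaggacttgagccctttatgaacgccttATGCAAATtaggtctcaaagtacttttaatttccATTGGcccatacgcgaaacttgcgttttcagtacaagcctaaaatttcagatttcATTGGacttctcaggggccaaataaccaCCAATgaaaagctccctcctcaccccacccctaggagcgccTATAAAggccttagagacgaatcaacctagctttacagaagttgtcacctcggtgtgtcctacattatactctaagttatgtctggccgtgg
RefSeq held a promoter for 39 of the 46 members. The octamer was in 6 of 8 H2A and 3 of 9 H2B promoters and in 1.74% of all 32851 promoters of the same length. It was in none of the 6 H1, 7 H3 and 9 H4 promoters. Hist1h2bc, Hist2h2be and Hist3h2bb-ps had no promoter matched, though the stretch each shares with its H2A partner holds the octamer. Promoters of head-to-head partners also overlap, so 1 octamer can count in both classes. The H2A and H2B shares are therefore not compared. CCAAT was in every one of the H1, H2A, H2B and H3 promoters, in 3 of 9 H4 promoters and in 37.4% of all promoters. TATAAA was in 4 of 6 H1, 7 of 8 H2A, 7 of 9 H2B, 3 of 7 H3 and 6 of 9 H4 promoters, against 13.6% of all.

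The 8 libraries held 39258006 to 44357518 counts, of which the 46 histone genes took 0.0282 to 0.0320%. Rhodopsin and the other rod markers were abundant in every library. Their 12 genes summed to 64659 to 83085 CPM (TMM-scaled counts relative to library size) under GF-HFD and 38036 to 63351 CPM under GF-ND, 2 of 12 with an unadjusted p under 0.05. The 14 lens markers, among them the crystallins, stood apart in GF-ND mouse 11 at 65970 CPM and in GF-HFD mouse 19 at 11925 CPM, while the other 6 libraries held 169 to 1620 CPM. Red blood cell markers also did not overlap between the diets, at 16.5 to 38.5 CPM under GF-HFD and 6.60 to 12.7 CPM under GF-ND (5 of 7 tested genes higher at an unadjusted p under 0.05). Skeletal muscle markers were at 39.4 CPM in GF-HFD mouse 13 and at 4.58 to 7.06 CPM in the other 7 libraries. Pigment epithelium and ciliary body markers were at 697 and 634 CPM in GF-HFD mice 16 and 19 and at 913 CPM in GF-ND mouse 11, against 20.2 to 169 CPM in the other 5. Fibroblast and sclera markers spanned 17.05 to 297 CPM under GF-HFD and 13.6 to 203 CPM under GF-ND. The part of these tissues in the histone values was not tested, beyond the fits without mouse 11 and mouse 19 given below. In whole tissue, fewer cells of a type and less RNA per cell cannot be told apart.

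Per kilobase of annotated exon, and in the RNA that entered the libraries, a few genes stood far above the rest. Hist1h2bc, an H2B gene, had the highest mean level of the 46 at 55.9 RPKM (CPM per kilobase of exon). The linker histone Hist1h1c followed at 41.8 RPKM, Hist3h2ba (H2B) at 33.3 RPKM and Hist3h2a (H2A) at 25.5 RPKM. In this order each gene overlapped its neighbour over the 8 mice. No H3 or H4 gene came near these levels, with Hist2h3c2 the highest H3 gene at 6.16 RPKM and Hist1h4i the highest H4 gene at 8.12 RPKM. The H4 gene Hist1h4k (7.28 RPKM) and the H2B gene Hist2h2be (7.77 RPKM) lay close to Hist1h4i, and the spread of these 3 genes over the mice overlapped. In all, 19 members reached 1 RPKM and 27 did not, and the 3 members with the most counts, Hist1h1c, Hist1h2bc and Hist3h2a, held 62.4% of all histone counts.

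**Figure D1:**
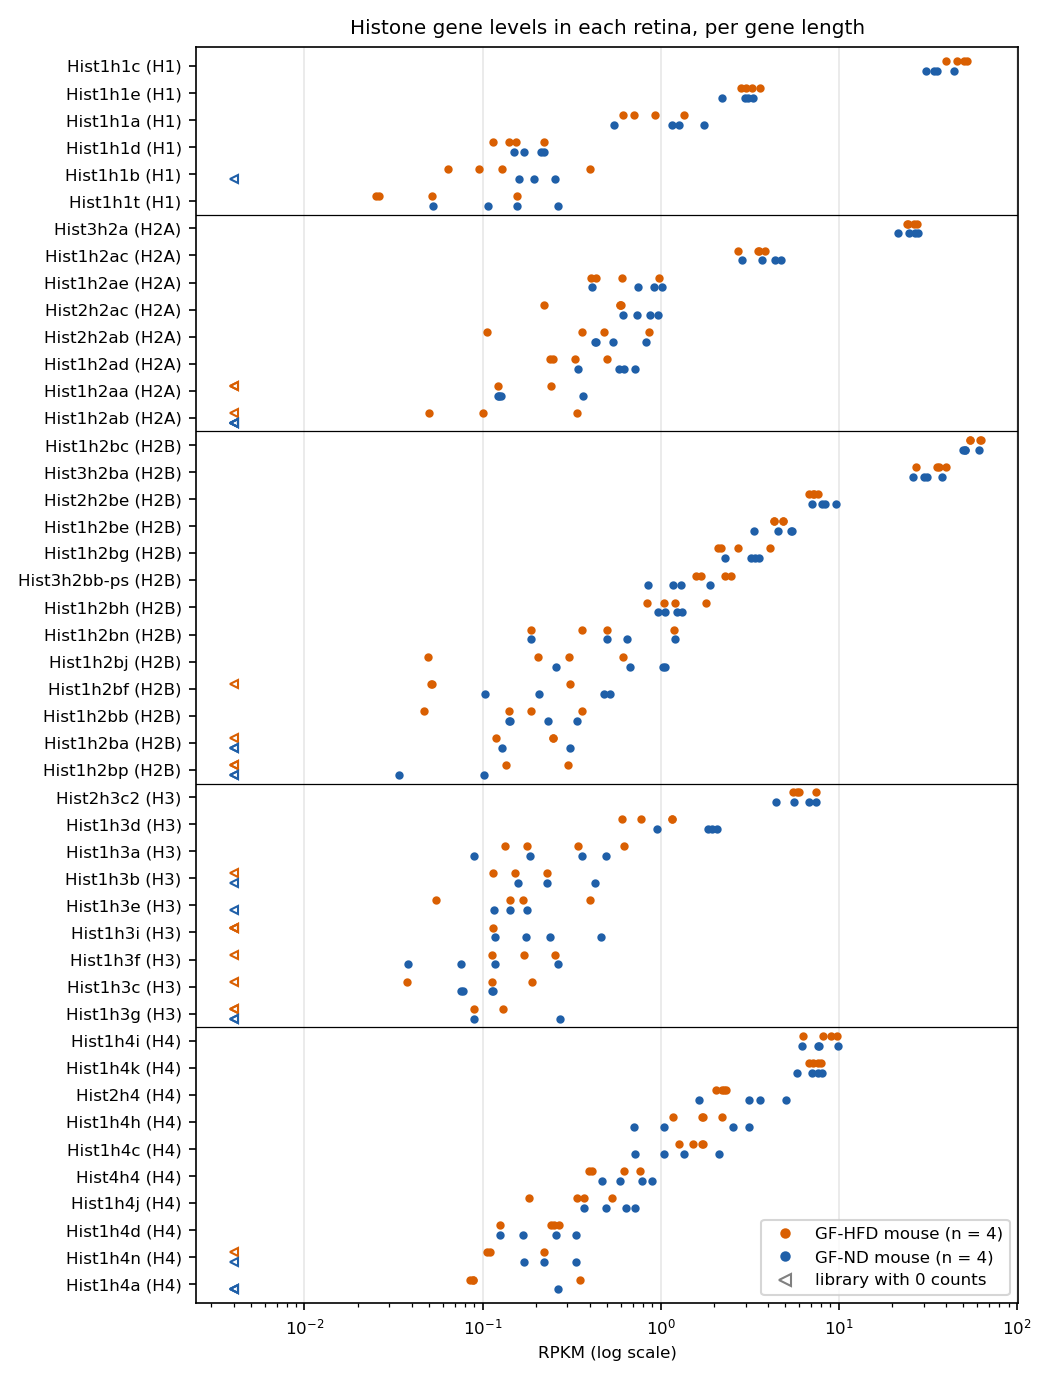
Level of each of the 46 histone genes in RPKM (x axis, log scale) in each GF-HFD (orange, upper) and GF-ND (blue, lower) mouse, ordered by class and mean level, with open triangles at the left edge for libraries with 0 counts. Hist1h2bc, Hist1h1c, Hist3h2ba and Hist3h2a lie to the right of all other genes in both diets.

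Within a class the summed level was carried by few genes. The 3 most counted members held 98.7% of the H1 counts, 98.6% of H2A, 80.5% of H2B, 93.7% of H3 and 73.8% of H4. At the low end, Hist1h2ab (H2A, 10 counts) and Hist1h3g (H3, 13 counts) lay just inside the count threshold, and Hist1h2af (H2A, 8 counts), Hist1h2bl (H2B, 6 counts) and Hist1h4m (H4, 6 counts) just outside it. The 13 symbols with no count were 7 H2A, 3 H2B and 3 H3 genes. A total of 0 allows up to 3 counts over the 8 libraries by counting error if counts are independent, and more if they are not.

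Near-identical copies set a limit on what these counts can resolve. All 13 H4 symbols encode the same protein of 103 residues in the annotation, the 12 H3 symbols encode 3 proteins, and the 18 coding H2A and 18 coding H2B symbols encode 9 and 11 proteins. By contrast, the 6 H1 genes encode 6 proteins. Each annotated gene was read in windows of 100 bases, the read length, and the share of windows found in no other annotated gene was computed. This share had a median of 72.1% in the 46 members, 28.2% in the 11 symbols with 1 to 9 counts and 7.35% in the 13 symbols with no count. The last 13 ranged from 0 to 80.8%, and the pseudogene Hist1h2al, at 80.8%, is the one far above the others. How reads that fit several genes were counted is not given in the sources used here, so a count of 0 or a low count in a gene with few unique windows does not show that the gene is silent.

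**Figure D2:**
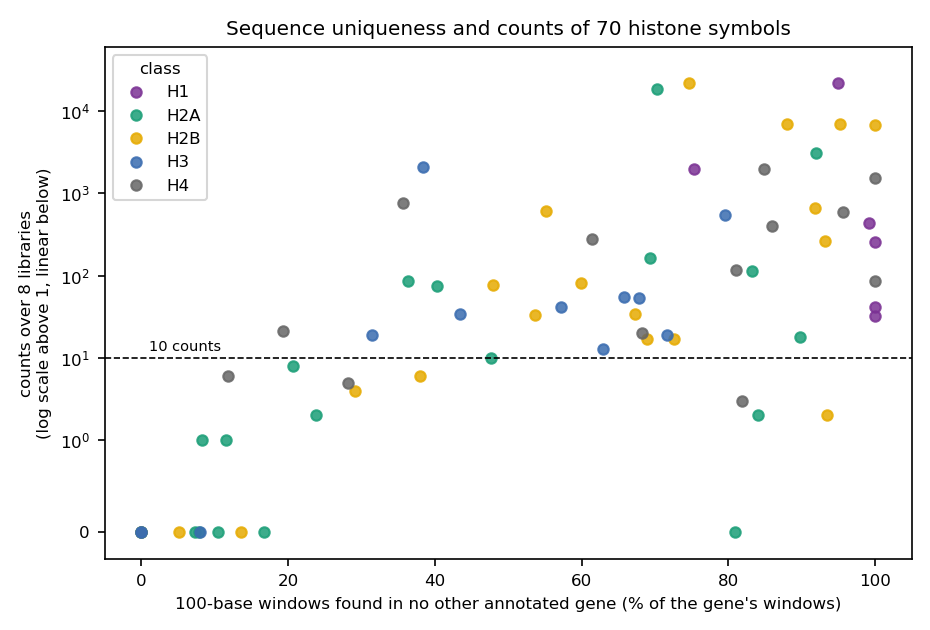
Counts over the 8 libraries (y axis, log scale above 1) against the percent of 100-base windows of a gene that occur in no other annotated gene (x axis), 1 point per histone symbol, coloured by class, with the threshold of 10 counts dashed. The symbols at 0 counts lie under 20% but for Hist1h2al at 80.8%.

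Among the better measured members, Hist1h4k (35.7% unique windows), Hist2h3c2 (38.4%) and Hist1h2bg (55.1%) share much of their sequence with other copies, and their levels are uncertain for that reason. Hist1h1c (94.9%), Hist3h2ba (95.2%), Hist2h2be (100%) and Hist2h4 (100%) are distinct. Overlapping annotation is a further limit for 10 members. Hist1h2be and Hist1h1e overlap each other on the same strand, Hist3h2a overlaps Trim17 and Gm44313, and all 8 H2A members overlap some other gene model. The strand setting of the counting is not given in the sources used here.

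The levels also differed with the length annotated downstream of the coding sequence. From the stop codon on, over 200 bases were annotated in 15 of the 18 coding members at 1 RPKM or more and in 8 of the 27 members under 1 RPKM, with medians of 773.5 and 97 bases. Exceptions stood on both sides. Hist1h4k had 7.28 RPKM with nothing annotated past its stop codon of 3 bases, and Hist1h1d had 0.173 RPKM with 4934 bases. This is a description across genes, which share libraries and sequence, and an annotation that is longer also enters the RPKM as a divisor. Hist1h2bc differs from the single-exon members in that its annotated transcript is spliced over 2 exons.

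**Figure D3:**
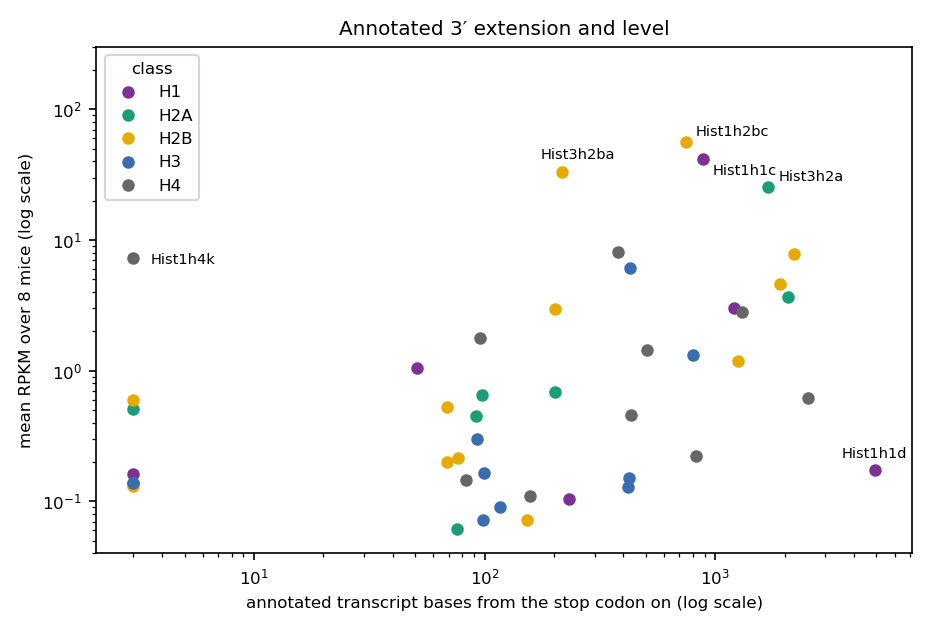
Mean level of the 45 coding members in RPKM over the 8 mice (y axis, log scale) against the annotated transcript bases from the stop codon on (x axis, log scale), coloured by class. Hist1h2bc, Hist1h1c, Hist3h2ba and Hist3h2a, the 4 highest, all have more than 200 such bases, and Hist1h4k has 3.

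Over the 46 members, no diet difference passed the adjusted test. The edgeR quasi-likelihood test called 0 of 46 at an adjusted p under 0.05, with 0.649 as the smallest adjusted p among the members, where 0% of all 26900 genes tested were called, and DESeq2 and limma-voom also called 0 members. At an unadjusted p under 0.05, edgeR had 2 members higher in GF-HFD retinas (Hist1h1c and Hist1h2ab), against 2.85% of all genes, and 2 lower (Hist1h3d and Hist1h3i), against 4.53%. The GF-HFD values lay wholly above the GF-ND values in 0 members (2.29% of all genes) and wholly below in 2, Hist2h2ac and Hist1h3i (2.54%). Hist1h2ab and Hist1h3i reached the count that makes a gene a member only through the diet in which they were higher, so nothing is read from their part in these numbers, which leaves 1 member higher and 1 lower at an unadjusted p under 0.05. Fitted changes were positive in 19 and negative in 27 members, against 12454 positive and 14446 negative among all 26900 genes. The median log2 fold change was -0.17 in the members and -0.03 over all genes. The member tally includes Hist1h2ab and Hist1h3i, and nothing is read from it or from the tallies by class below.

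The precision followed the counts. The 11 members with 1000 counts or more had standard errors (SE) of the log2 fold change from 0.09 to 0.29, the 13 with 100 or more but under 1000 counts from 0.19 to 0.46, and the 22 with fewer than 100 counts from 0.45 to 1.73. In 14 of those 22 at least 1 library had no count. Their fitted changes ranged widely and cannot be read as differences at this depth.

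**Figure D4:**
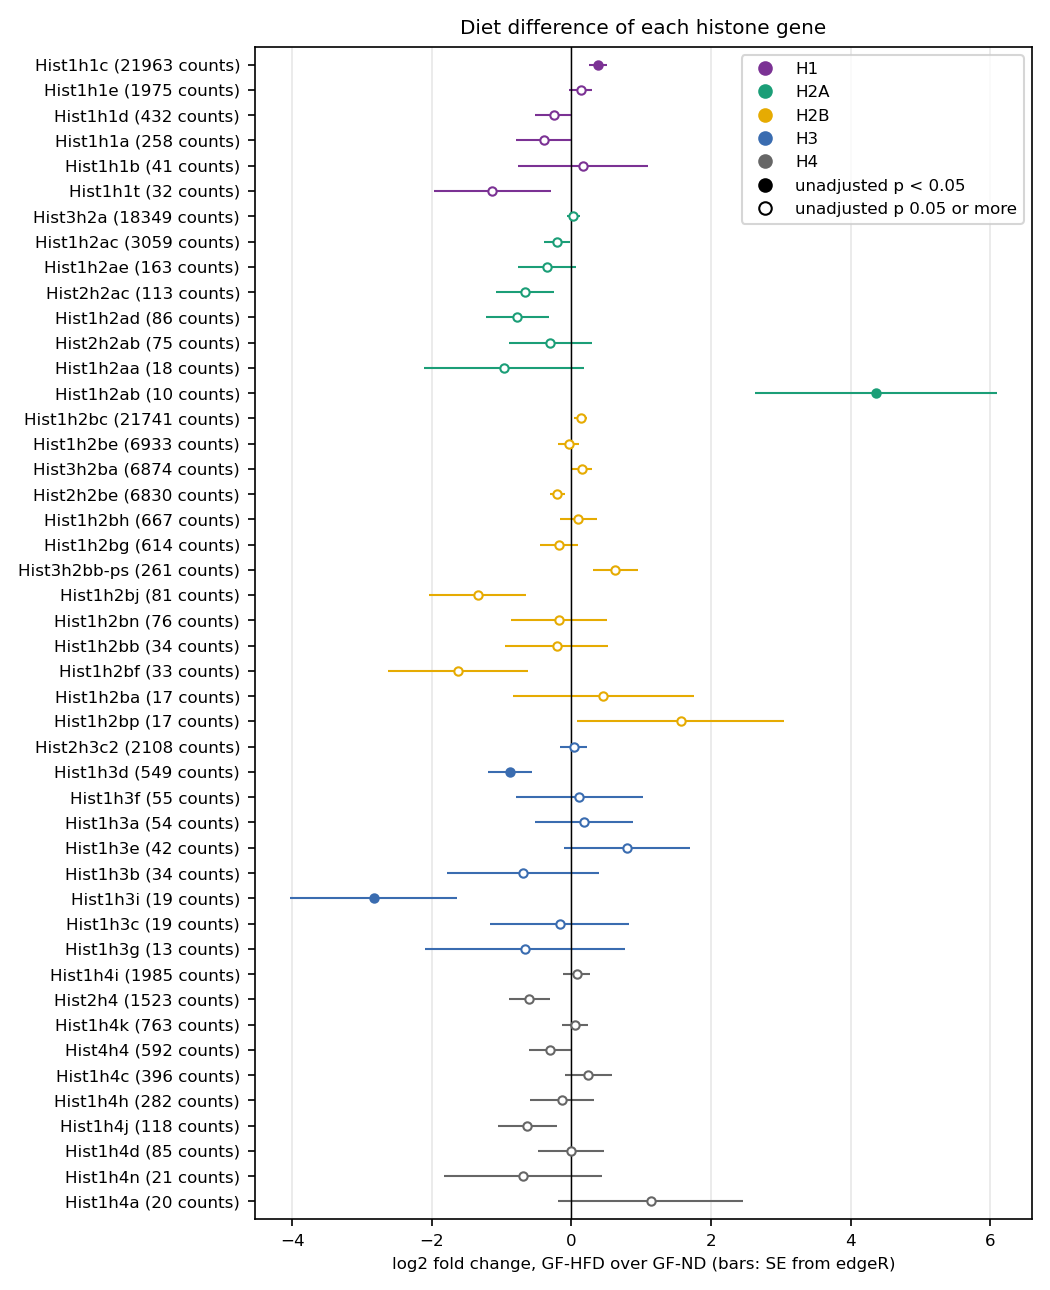
Log2 fold change between the diets (GF-HFD over GF-ND) with its SE (x axis) for the 46 histone genes (y axis, with total counts), coloured by class and ordered by mean CPM within it, filled where the unadjusted edgeR p is under 0.05. The bars widen as counts fall, and among the genes with 1000 counts or more the changes lie between -0.60 (Hist2h4) and 0.38 (Hist1h1c).

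Linker histones were the class with the largest summed difference, and this came from Hist1h1c. Summed H1 levels were 81.9 ± 9.66 CPM under GF-HFD and 64.9 ± 8.45 CPM under GF-ND (SD, n = 4 mice each), and the groups overlapped. Hist1h1c, a somatic linker histone on chromosome 13 from 23738808 to 23740367, had 3298, 3026, 3594 and 2629 counts in GF-HFD mice 13, 15, 16 and 19, against 1993, 2266, 2911 and 2246 counts in GF-ND mice 9, 10, 11 and 12. The groups overlapped through GF-ND mouse 11 and GF-HFD mouse 19, the highest and lowest of their diets and the 2 libraries with the most lens transcripts.

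Its means were 73.8 ± 8.86 CPM under GF-HFD and 56.7 ± 9.03 CPM under GF-ND (SD, n = 4 mice each), a log2 fold change of 0.38 (SE 0.13) with an unadjusted edgeR p of 0.0135 and an adjusted p of 0.649. The two-sided exact permutation test gave p = 0.0571, and 4 mice against 4 allow no p under 0.0286. Leaving out GF-ND mouse 11 changed the call, with a log2 fold change of 0.50 (SE 0.10) and an adjusted edgeR p of 0.0422, in a fit that called 1.6% of all genes. Without both mouse 11 and mouse 19 it was 0.57 (SE 0.09) with an adjusted edgeR p of 0.0458, where 0.214% of all genes were called. Over all alternatives that kept mouse 11, the adjusted p of Hist1h1c from edgeR, DESeq2 or limma-voom was between 0.312 and 0.927. Whether lens RNA accounts for the value in mouse 11 was not tested.

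The other 5 linker histones each had an unadjusted p of 0.05 or more. Hist1h1e had 244, 264, 305 and 232 counts in GF-HFD mice, against 248, 174, 242 and 266 in GF-ND mice, for a log2 fold change of 0.13 (SE 0.17) with overlapping groups. Hist1h1d, another somatic H1, had 44, 48, 72 and 36 counts in GF-HFD mice, against 68, 64, 47 and 53 in GF-ND mice, for a log2 fold change of -0.26 (SE 0.27). Hist1h1t, the H1 of male germ cells, had 10 counts over the GF-HFD and 22 over the GF-ND mice. Fitted changes of the 6 genes were positive in 3 and negative in 3, and their median was -0.06.

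**Figure D5:**
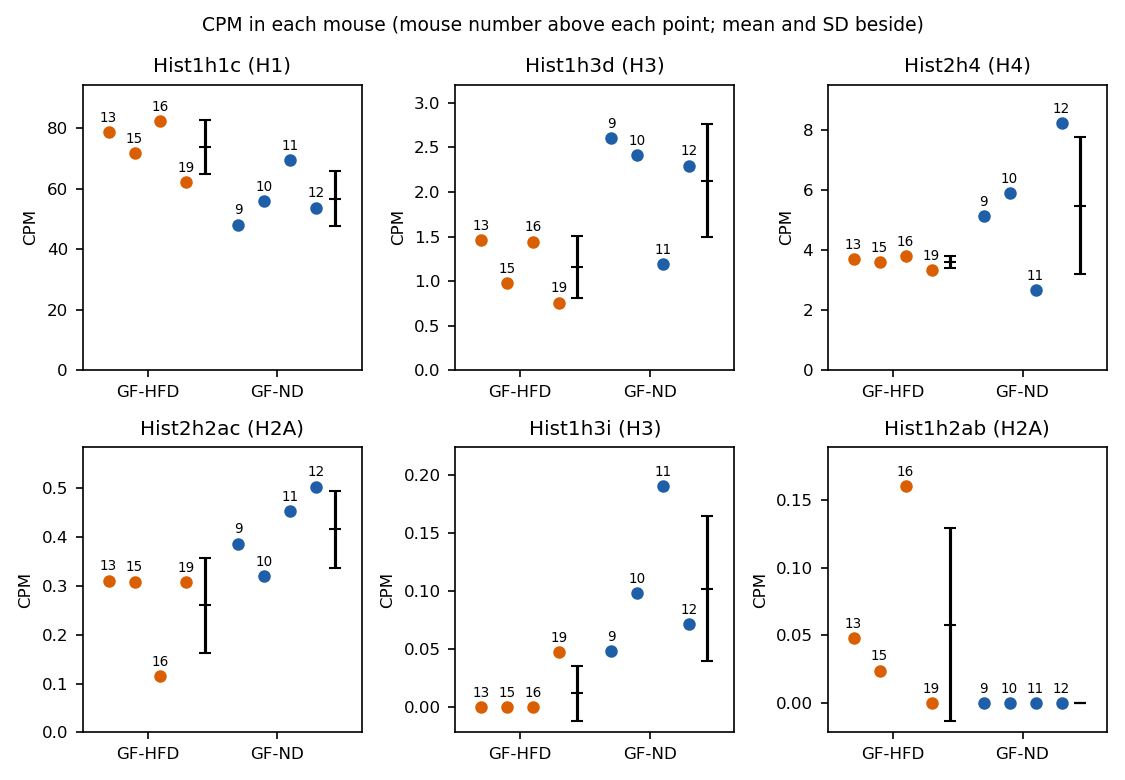
CPM (y axes, from 0) of 6 histone genes in each GF-HFD mouse (orange, left) and GF-ND mouse (blue, right), labelled by mouse number, with mean and SD beside the points. Hist1h1c overlaps through mice 11 and 19, Hist1h3d and Hist2h4 overlap through GF-ND mouse 11, and the groups are apart in Hist2h2ac and Hist1h3i.

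H2A counts came mostly from Hist3h2a, and their sum differed between the diets by less than the spread between mice. Summed H2A levels were 64.8 ± 3.13 CPM under GF-HFD and 65.5 ± 5.87 CPM under GF-ND (SD, n = 4 mice each). Hist3h2a had 2474, 2196, 2310 and 2398 counts in GF-HFD mice, against 1907, 2327, 2229 and 2508 in GF-ND mice, a fitted log2 change of 0.03 (SE 0.10), with a sign that turned under other settings. The groups overlapped fully, and its spread over the 8 mice (a coefficient of variation of 8.37%) was the smallest of the 46 members.

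Of the 8 H2A members, 6 had a negative fitted change, with a class median of -0.32. Hist1h2ac, the partner of Hist1h2bc, had 366, 371, 420 and 285 counts in GF-HFD mice, against 489, 443, 299 and 386 in GF-ND mice, for a log2 fold change of -0.20 (SE 0.18). The groups overlapped, with the lowest count of each diet in the lens-rich mice 19 and 11. Hist1h2ae, which encodes the same protein, had 12 to 30 counts under GF-HFD and 12 to 29 under GF-ND, a log2 fold change of -0.34 (SE 0.42).

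Hist2h2ac was the H2A gene whose groups did not overlap. It had 13, 13, 5 and 13 counts in GF-HFD mice, against 16, 13, 19 and 21 in GF-ND mice. The diets share a count of 13 and are apart only after scaling, at 0.260 ± 0.0972 CPM under GF-HFD and 0.415 ± 0.0794 CPM under GF-ND (SD, n = 4 mice each). Its log2 fold change was -0.67 (SE 0.42), with an unadjusted edgeR p of 0.139. The two-sided exact permutation p was 0.0286, the smallest that the design allows. Groups that are apart always give this value, and the gene was named for being apart. Nothing is therefore read from the permutation p.

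Hist1h2ab, which lies at the count threshold, had 2, 1, 7 and 0 counts in GF-HFD mice and no count in any GF-ND mouse. Mouse 16 gave 7 of the 10 counts, and 1 GF-HFD mouse had none. It is a member only through its GF-HFD counts, so these are given as a description with no fold change or test, and the fitted change drawn for it in the plot of fold changes depends on the prior count. It shares about as much sequence with other copies as not (47.6% unique windows).

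H2B genes had the highest summed level of the classes and no member with an unadjusted p under 0.05. The class summed to 134 ± 4.86 CPM under GF-HFD and 129 ± 4.62 CPM under GF-ND (SD, n = 4 mice each), with overlap. Hist1h2bc, on chromosome 13 from 23684199 to 23692908, had 2630, 3052, 3125 and 2690 counts in GF-HFD mice, against 2448, 2392, 2993 and 2411 in GF-ND mice. GF-ND mouse 11 again lay among the GF-HFD mice, and the log2 fold change was 0.13 (SE 0.09).

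Hist1h2be had 802, 809, 943 and 911 counts in GF-HFD mice, against 1000, 824, 628 and 1016 in GF-ND mice, for a log2 fold change of -0.04 (SE 0.15). The GF-HFD values lay inside the GF-ND range. Hist3h2ba had 1036, 706, 988 and 928 counts in GF-HFD mice, against 668, 784, 986 and 778 in GF-ND mice, for a log2 fold change of 0.15 (SE 0.15) with overlap. Of the 13 H2B members, 6 fitted changes were positive and 7 negative (median -0.04).

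In the head-to-head pairs whose shared stretch is shown above, chosen for their difference in level, the H2B gene had the higher level per length. Hist1h2ac had 3.67 RPKM and Hist1h2bc, 251 bases away, 55.9 RPKM. Hist2h2ac had 0.650 RPKM and Hist2h2be, 239 bases away, 7.77 RPKM. Hist1h2ae (0.689 RPKM) was also below its H2B partner Hist1h2bg (2.96 RPKM). In the pair of Hist3h2a (25.5 RPKM) and the pseudogene Hist3h2bb-ps (1.66 RPKM) the H2A gene was the higher. Hist1h2ad (0.449 RPKM, 86 counts) was likewise above Hist1h2bf (0.216 RPKM, 33 counts), so neither class led in every pair. Hist1h2aa and Hist1h2ba, which are known for their role in testis, were alike at 0.138 and 0.132 RPKM from 18 and 17 counts. Fitted changes had opposite signs for Hist1h2ac and Hist1h2bc and the same sign in the other pair shown, -0.67 (SE 0.42) for Hist2h2ac and -0.20 (SE 0.11) for Hist2h2be.

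H3 genes were low in both diets and held Hist1h3d, the member with the smallest unadjusted p on the lower side. The class summed to 8.18 ± 0.725 CPM under GF-HFD and 9.08 ± 1.99 CPM under GF-ND (SD, n = 4 mice each), with GF-ND mouse 11 the lowest library at 6.29 CPM. Hist2h3c2, which carries most of the class, had 238, 322, 268 and 251 counts in GF-HFD mice, against 289, 311, 190 and 239 in GF-ND mice. Its groups overlapped fully, and its log2 fold change of 0.03 (SE 0.19) changed sign under other settings.

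Hist1h3d, on chromosome 13 from 23575763 to 23577011, had 61, 41, 63 and 32 counts in GF-HFD mice, against 108, 98, 50 and 96 in GF-ND mice. The groups overlapped through GF-ND mouse 11 alone, whose count of 50 lay between those of the GF-HFD mice. Mean levels were 1.16 ± 0.349 CPM under GF-HFD and 2.13 ± 0.636 CPM under GF-ND (SD, n = 4 mice each), a log2 fold change of -0.88 (SE 0.32) with an unadjusted edgeR p of 0.0199 and an adjusted p of 0.649. The exact permutation test gave p = 0.0857. Without GF-ND mouse 11 the log2 fold change was -1.07 with an adjusted edgeR p of 0.0638. Leaving out mouse 9 (GF-ND), 15 or 19 (GF-HFD) gave -0.76, -0.80 and -0.72, and the unadjusted edgeR p was then above 0.05 in each of these 3 fits.

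Hist1h3i, on chromosome 13 from 21782960 to 21783370, had 0, 0, 0 and 2 counts in GF-HFD mice, against 2, 4, 8 and 3 in GF-ND mice. The GF-HFD mice are lower, but mouse 19 and GF-ND mouse 9 share a count of 2 and are apart only after scaling. Of its 19 counts, 17 came from GF-ND mice, and it reached the count threshold only through them, so the counts are given as a description with no fold change or test. The study names this gene from the same libraries, so its values are no independent evidence, and only 31.4% of its windows are unique.

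Among other copies that encode the same protein, Hist1h3a had 29 counts over the GF-HFD and 25 over the GF-ND mice, and Hist1h3g had 5 and 8. The ratio for Hist1h3a was 1.10, with an exact 95% interval of 0.621 to 1.96 for counting error. This interval takes counts as independent, which they were not, so it is too narrow. Hist1h3f, of the other main H3 protein, had 9, 0, 14 and 6 counts in GF-HFD mice, against 2, 6, 4 and 14 in GF-ND mice, which overlap fully. Of the 9 H3 members, 4 fitted changes were positive and 5 negative, with a median of -0.17.

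H4 genes, which all encode the same protein, had no member with an unadjusted edgeR p under 0.05 over the 8 mice, though Hist2h4 passed it under other settings. The class summed to 16.3 ± 1.82 CPM under GF-HFD and 18.2 ± 2.67 CPM under GF-ND (SD, n = 4 mice each), with overlap. Hist1h4i had 298, 194, 286 and 252 counts in GF-HFD mice, against 298, 185, 238 and 234 in GF-ND mice. Hist1h4k had 104, 89, 104 and 95 counts in GF-HFD mice, against 92, 74, 100 and 105 in GF-ND mice. Their groups overlapped, with log2 fold changes of 0.07 (SE 0.19) and 0.05 (SE 0.19).

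Hist2h4, on chromosome 3 from 96261682 to 96263311, was the H4 gene with the smallest p. It had 155, 152, 166 and 141 counts in GF-HFD mice, against 213, 240, 112 and 344 in GF-ND mice. The GF-HFD mice were close together at 3.61 ± 0.201 CPM, while the GF-ND mice spread at 5.49 ± 2.29 CPM (SD, n = 4 mice each), and GF-ND mouse 11 lay below all GF-HFD mice. The log2 fold change was -0.60 (SE 0.29), with an unadjusted edgeR p of 0.0639 and an exact permutation p of 0.171. The unadjusted p was 0.0361 in DESeq2 and 0.0471 in edgeR with no filter on counts, with an adjusted p of 0.464 and 0.632. Without GF-ND mouse 11, the lowest, the log2 fold change was -0.83 with an adjusted edgeR p of 0.0505, and leaving out mouse 19 as well gave -0.79 with an adjusted edgeR p of 0.0987. Leaving out mouse 12, the highest GF-ND library, gave -0.34 with an adjusted edgeR p of 0.842.

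Summed over all 46 members, the histone level was 305 ± 14.4 CPM under GF-HFD and 287 ± 8.02 CPM under GF-ND (SD, n = 4 mice each). The 4 GF-HFD sums lay between 290 and 322 CPM and the 4 GF-ND sums between 276 and 296 CPM, which overlap. After TMM scaling the mean GF-HFD sum was higher in H1 and H2B and lower in H2A, H3 and H4, and in each class the groups overlapped.

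Genes around histone supply were read beside the members, as counts over whole lists. Of 14 genes listed as replication-independent histones, 12 were tested (H1fnt and Hils1 had no count). Whether each of them, H2afx among them, is independent of replication was not examined. A positive fitted change was seen in 8, and 4 were higher at an unadjusted edgeR p under 0.05. The median log2 fold change was 0.12, with 0 at an adjusted p under 0.05 in edgeR. H2afx, the variant marked at DNA breaks, had 969, 655, 823 and 546 counts in GF-HFD mice, against 442, 477, 635 and 414 in GF-ND mice, for a log2 fold change of 0.57 (SE 0.20) with overlap through mice 11 and 19. H3f3b, which encodes H3.3, averaged 718 ± 52.6 CPM under GF-HFD and 570 ± 95.3 CPM under GF-ND (SD, n = 4 mice each), a log2 fold change of 0.33 (SE 0.13) with overlap.

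H2afv, a form of H2A.Z, was the variant among these 4 whose groups were apart. It averaged 57.0 ± 2.56 CPM under GF-HFD and 50.02 ± 4.02 CPM under GF-ND (SD, n = 4 mice each), a log2 fold change of 0.19 (SE 0.08). H2afy, which encodes macroH2A, had 0.19 (SE 0.08) with overlap. The 12 variants together summed to 1252 to 1410 CPM under GF-HFD and 954 to 1290 CPM under GF-ND, and mouse 11 was the highest GF-ND library.

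Of 20 genes for processing and supply of histone mRNA, 0 were higher and 1 was lower at an unadjusted p under 0.05 (median 0.04). That gene was Cstf2, a factor of 3′ end cleavage, with a log2 fold change of -0.22 (SE 0.08) and overlap. Of 18 histone chaperones, 1 was higher and 0 were lower (median 0.02), namely Anp32e, the chaperone that removes H2A.Z, with 769 ± 59.8 CPM under GF-HFD and 624 ± 24.9 CPM under GF-ND (SD, n = 4 mice each). Its groups were apart, and the log2 fold change was 0.30 (SE 0.09).

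Of 32 genes of S phase and cell division, 1 was higher and 0 were lower (median 0.04), namely the ribonucleotide reductase subunit Rrm1, with a log2 fold change of 0.21 (SE 0.09). The list summed to 224 to 240 CPM under GF-HFD and 202 to 225 CPM under GF-ND, which overlap through GF-ND mouse 11. None of these lists had a gene past an adjusted p under 0.05 in edgeR, and their counts at an unadjusted p stand against 2.85% higher and 4.53% lower among all genes.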

How the data were processed

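RNA of whole retinas from 8 germ-free male mice was sequenced as 100-bp read pairs from TruSeq RNA libraries. Whether poly(A) RNA was selected is not stated in the methods. The authors aligned the reads to GRCm38 (mm10) with STAR 2.4.2 and deposited raw counts per gene symbol from featureCounts of Subread 1.4.6-p1, with no scaling or filter, and their methods name Gencode vM23. The strand setting and the treatment of reads that fit several genes are not given in the sources used here. Among counts from 1 to 12, even values outnumbered odd values 1.91 to 2.36 times, depending on the library. Small counts thus often came in pairs and are not independent of each other. The cause was not tested. Depths of 39258006 to 44357518 counts limit the precision of genes with few counts.

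The 26900 genes that reached 10 counts in total were scaled by TMM and tested in edgeR 4.0.16 (R 4.3.3) with a two-sided quasi-likelihood test, GF-HFD over GF-ND, and Benjamini-Hochberg adjustment over all of them. Log2 CPM used a prior count of 2. Single genes were also tested by a two-sided exact permutation test of log2 CPM over 70 arrangements. Exact 95% intervals and the floor of 3 counts cover counting error only, take counts as independent and use library totals without TMM factors. The excess of even values goes against independence, so the intervals are too narrow and the floor is too low. RPKM is CPM per kilobase of exon in GENCODE vM21 on GRCm38. Promoters are from RefSeq (GRCm38.p6), with 60 of 70 symbols matched.

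Named members were the 3 with the highest mean CPM in each class, those with an unadjusted p under 0.05 or groups apart, Hist1h3i, and those nearest the count threshold; from other lists, genes with an unadjusted p under 0.05. Other members given with values (Hist1h1t, Hist1h3a, Hist2h2be, Hist3h2bb-ps and Hist4h4 among them) were chosen after their values were seen. The members and lists were chosen with earlier results of these data known. Zcchc6 of the processing list was not found in the files under that symbol.

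Alternatives were RLE factors, library totals, no filter, filterByExpr, 10 CPM in at least 4 libraries, DESeq2 1.42.0, limma-voom (limma 3.58.1), robust dispersion, each mouse left out in turn, and both lens-rich libraries left out together. The scripts were tested on simulated data.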

Additional observations from a re-analysis of the deposited data

Results flagged for a closer look

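Of 46 groups of 4 mice tested for a far sample (18 named members and 5 class sums in both diets), 3 held a mouse far from the others by Dixon's criterion, and chance flags about 1 in 20 groups. Hist1h2bc was at 71.31 CPM in GF-ND mouse 11, which also had the highest lens marker sum, and at 57.68 to 59.01 CPM in the other GF-ND mice. Hist2h2ac was at 0.1145 CPM in GF-HFD mouse 16 and at 0.3073 to 0.3104 CPM in the other GF-HFD mice. Hist1h3i was at 0.04728 CPM in GF-HFD mouse 19, a value that stands for 2 counts, and at 0 in the other GF-HFD mice. Any count beside values of 0 gives the largest Dixon value. The Hist1h3i flag was therefore fixed in advance, and nothing is read from it among the 3.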

How the results depend on the processing

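Without GF-ND mouse 11, and without it and GF-HFD mouse 19, edgeR called 1 member at an adjusted p under 0.05 in place of 0, and this was Hist1h1c in both fits, with log2 fold changes of 0.50 and 0.57. No other alternative called a member, although DESeq2 called 46 genes in all (smallest adjusted p of a member 0.291). Members higher at an unadjusted p under 0.05 numbered 2, and 1 with filterByExpr, 10 CPM, DESeq2 or limma-voom, 1 to 3 with a mouse left out and 3 without mice 11 and 19. Members lower numbered 2, and 1 with filterByExpr or 10 CPM, which kept 27 and 6 of the 46 members. They numbered 3 with no filter or DESeq2, and 1 to 4 with a mouse left out. Each main count of 2 includes a gene that is a member through 1 diet only, Hist1h2ab or Hist1h3i. Nothing is therefore read from these counts or from their changes with the setting. Over all genes, the main fit had 2.85% higher and 4.53% lower. Of 286 values of the 18 named members under the 17 alternatives, 265 kept their direction and their side of the adjusted threshold and 19 changed sign, all in 6 genes with fitted changes near 0 or few counts. Hist1h2ab, with no GF-ND count, could not change sign, and Hist1h3i is also among the 18. Some other members were named for their p or for groups apart. The tally is therefore a description and no measure of stability. Hist3h2a was at -0.0152 with library totals, -0.0307 at 10 CPM and -0.0414 to 0.0826 with a mouse left out. Hist2h3c2 was at -0.0263 with library totals, -0.0590 without mice 11 and 19 and -0.0891 to 0.140 with a mouse left out. Hist1h3f was at -0.34 in limma-voom. With a mouse left out Hist1h3f ranged from -0.39 to 0.79, Hist1h2be from -0.17 to 0.0420, Hist1h4i from -0.0271 to 0.20 and Hist1h4k from -0.0454 to 0.11. The H1 median was 0.32 at 10 CPM, where Hist1h1c was the only H1 gene tested, and -0.36 without GF-HFD mouse 16, against -0.06 in the report. No paired analysis was possible because mouse numbers differ between the diets. Under 100 counts in all, as in 22 of the 46 members, the depth limits what can be told, and near-identical copies limit it further. The cause of each change with a setting was not tested.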
